A study of Mus musculus with 4 samples.

Results

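The genes described here are the numbered cadherins and numbered protocadherins of the mouse forelimb. They were chosen by symbol alone: Cdh followed by a number, or Pcdh followed directly by a number. The rule found 35 of the 23185 named genes on the array, 5 type I cadherins, 13 type II cadherins, 9 delta protocadherins and 8 others. RNA came from forelimbs of C57BL/6 mouse embryos at stage E11.5, wild type or Shox2 knockout, with 2 arrays per genotype. Limbs of the same genotype were pooled, 3 to 4 embryos to a pool per the labels, and the arrays carry the numbers 48 and 50 in their titles. The sources used here do not give the knockout allele, the driver of any Cre, the sex of the pooled embryos or what the numbers 48 and 50 stand for. The pools are taken as the replicates, so a test measures the spread between these pools.

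Classical cadherins are calcium-dependent adhesion proteins that join neighbouring cells through their outer repeats and bind catenins on the inside. Type I cadherins, such as those of epithelia and nerve, carry strong adhesion, while type II cadherins mark smaller sets of mesenchymal, vascular and neural cells. Delta protocadherins have longer arrays of repeats and no catenin-binding tail, adhere weakly and take part in cell sorting and migration. In limb buds, N-cadherin and cadherin-11 are known from the mesenchyme that condenses into cartilage, E- and P-cadherin from the covering ectoderm, and VE-cadherin from vessels.

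Shox2, the deleted transcription factor gene, read 10.57 and 10.37 on the wild-type arrays (numbers 48 and 50) and 9.58 and 8.88 on the knockout arrays, in log2 expression units. Both knockout arrays were lower, by a mean difference of -1.24 ± 0.21 (SE, n = 2 pools per genotype), which missed the threshold of the test across genes (limma, adjusted p = 0.322). The sources used here do not say which part of the gene its probes cover. For the tissue label, the limb gene Prrx1 and the forelimb gene Tbx5 stood at 12.66 and 12.34 in the wild type. Both belong to a limb mesenchyme list of 10 genes, 7 higher and 3 lower in the knockout, with a median difference of 0.15. An unadjusted p under 0.05 was found for 3 of the higher genes and 1 of the lower, against 10.2% of all genes tested. Of 4 hindlimb genes, Pitx1 and Hoxc10 lay below the limit for testing, Isl1 stood at 6.46 in the wild type, and Tbx4 at 6.77 in the wild type and 7.30 in the knockout (0.54 ± 0.10; limma, adjusted p = 0.322). The pools differed in sex-linked signal. In the knockout the 3 measured Y-linked genes were higher by 3.48 to 4.29 log2 units, and Xist was lower by a difference of -1.01. This signal split the 4 arrays by genotype. For every gene, autosomal ones included, sex-linked signal and genotype therefore cannot be told apart. All 12 genes of a distal mesenchyme list, chosen with earlier results of these data known, had higher values in the knockout. Of these, 10 had an unadjusted p under 0.05, where 5.19% of all genes tested did with higher values. The summed level of the list was 12.46 and 12.53 in the wild type and 13.00 and 12.96 in the knockout. In these pools, a changed number of cells of a type and a changed amount of RNA per cell cannot be told apart. The part of the limb mesenchyme, hindlimb and distal mesenchyme lists in the differences below was not tested.

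Of the 35 members, 25 were bright enough to be tested, with a mean over the 4 arrays at or above a log2 level of 5.60. With limma 0 members passed an adjusted p of 0.05, where 3 of 14095 genes did (0.0213%). These 3, Eif2s3y, Uty and Kdm5d, are Y-linked and belong to the sex-linked signal given above. At an unadjusted p under 0.05 stood 9 of the 25, 7 higher and 2 lower in the knockout, against 10.2% of all genes tested. By direction the share over all genes was 5.19% higher and 5% lower. Among the 25 tested members, both knockout arrays lay above both wild-type arrays for 11 and below them for 4, and 2 of the dim members, Cdh19 and Pcdh20, were also below. Such separation was measured for 42% of all genes tested, 22.1% higher and 19.9% lower. Only Cdh10 differed by at least 1.5-fold, a size met by 0.404% of the genes tested.

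**Figure D1:**
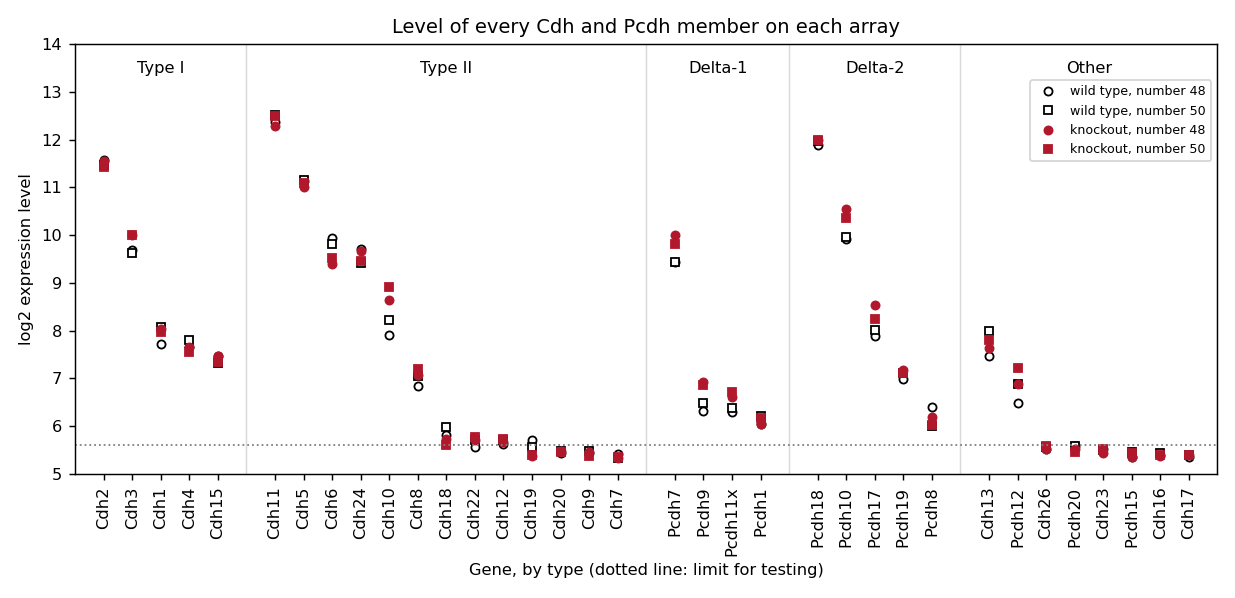
Log2 expression level (vertical axis) of all 35 members on each of the 4 arrays, grouped by type; open symbols are wild type, filled symbols knockout, circles number 48 and squares number 50. The 10 members with a mean below the dotted limit of 5.60 read between 5.32 and 5.70.

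Delta protocadherins had higher values in the knockout more often than lower ones: 7 of 9 were higher, with a median log2 difference of 0.33 against -0.00098 over all genes tested. All 9 were bright enough to be tested. With limma 0 of them reached the adjusted threshold. An unadjusted p under 0.05 was found for 5, all with higher values (5.19% of all genes tested). Taken within a number, the median was 0.32 for arrays 48 and 0.23 for arrays 50. In 6 of the 9 both knockout arrays read above both wild-type arrays, and in none did both read below. Over all genes tested these shares were 22.1% and 19.9%. Among the 6, Pcdh18 was apart by only 0.012 log2 units. Neuron markers are given beside these genes, several of which are known from the nervous system. Of 7 tested neuron markers 6 had higher values in the knockout, with a median of 0.10. At an unadjusted p under 0.05 stood 1, Stmn3 (0.36 ± 0.15), against 10.2% of all genes tested. The other 6 listed, Tubb3 and Elavl3 among them, were too dim to be tested. The summed level of the list was 10.40 and 10.46 in the wild type and 10.42 and 10.61 in the knockout, and its part in the delta protocadherin and Cdh10 values was not tested.

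Delta-1 protocadherins carry a tail motif that binds protein phosphatase 1, and 3 of the 4 were higher in the knockout, with a median of 0.40. Pcdh9, known mainly from the nervous system, read 6.32 and 6.48 in the wild type and 6.92 and 6.86 in the knockout. The knockout arrays were both higher, and the nearest arrays of the genotypes lay 0.38 apart. Its mean was 6.40 ± 0.11 in the wild type and 6.89 ± 0.045 in the knockout (SD, n = 2 pools per genotype). The genotypes differed by 0.49 ± 0.090 (SE; limma, adjusted p = 0.322). Pcdh7, also called BH-protocadherin, read 9.434 and 9.438 in the wild type and 10.01 and 9.82 in the knockout. The wild-type arrays all but coincided and the knockout arrays were spread above them. The difference was 0.48 ± 0.092 (limma, adjusted p = 0.322). Pcdh11x, which lies on the X chromosome, read 6.29 and 6.38 in the wild type and 6.61 and 6.72 in the knockout. Its difference of 0.33 ± 0.086 (limma, adjusted p = 0.346) was about equal in the array numbers, 0.32 at 48 and 0.34 at 50. The pools also differed in Y-linked signal and Xist, which cannot be told apart from genotype for this or any other member. The fourth member, Pcdh1, read 6.05 and 6.20 in the wild type and 6.05 and 6.17 in the knockout, so its genotypes overlapped.

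Delta-2 protocadherins, whose tails recruit the WAVE complex that drives actin assembly, split into 2 members with larger differences and 3 with small ones. Pcdh10, or OL-protocadherin, read 9.92 and 9.97 in the wild type and 10.55 and 10.35 in the knockout. Its mean was 9.95 ± 0.033 in the wild type and 10.45 ± 0.14 in the knockout (SD), and the genotypes differed by 0.51 ± 0.094 (SE; limma, adjusted p = 0.322). Pcdh17, also known mainly from the brain, read 7.89 and 8.002 in the wild type and 8.53 and 8.23 in the knockout. Both knockout arrays were higher, but the difference was 0.64 at number 48 and 0.23 at number 50 (0.44 ± 0.12 overall; limma, adjusted p = 0.352). Pcdh18 read 11.88 and 11.97 in the wild type and 11.98 on both knockout arrays, at percentile 99.2 of all probe sets. Its difference of 0.057 ± 0.081 was smaller than its error (limma, adjusted p = 0.848). The X-linked epilepsy gene Pcdh19 read 6.99 and 7.11 in the wild type and 7.17 and 7.11 in the knockout (0.090 ± 0.085). Pcdh8 read 6.39 and 6.00 in the wild type and 6.19 and 6.03 in the knockout. For Pcdh8 the wild-type arrays differed from each other by more than the genotypes did.

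**Figure D2:**
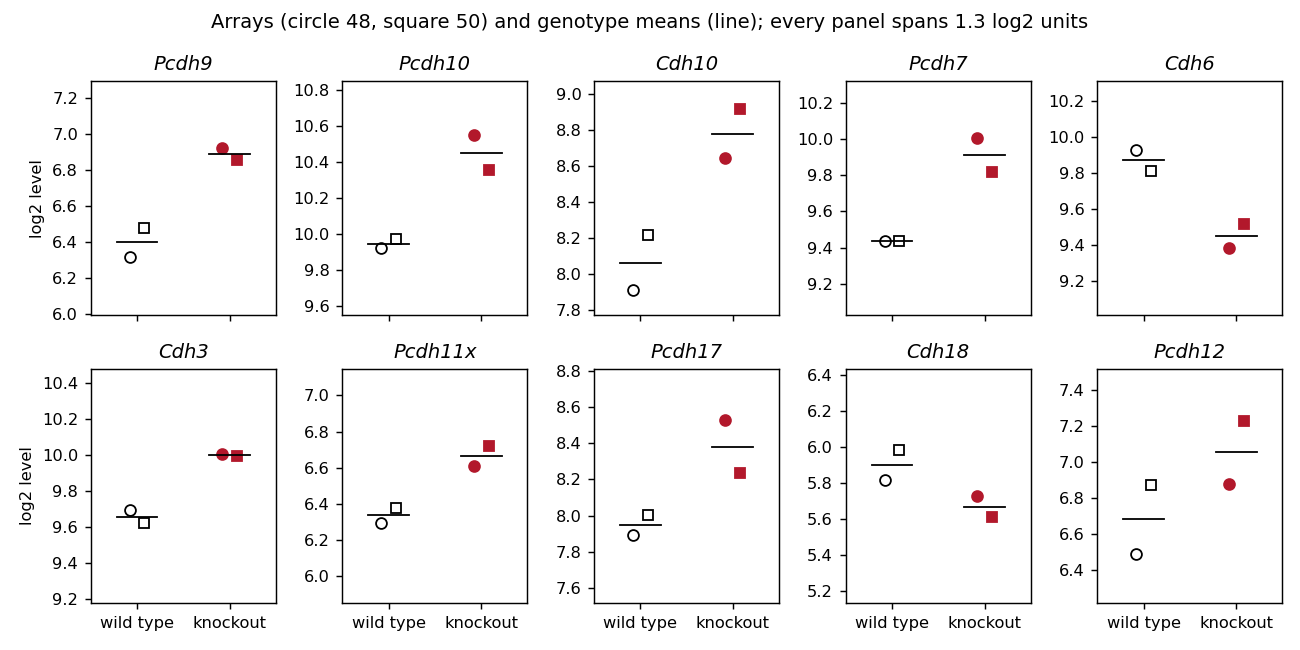
Log2 expression level (vertical axis) on each array for the 9 members with an unadjusted p under 0.05 and for Pcdh12; circles are number 48, squares number 50, open wild type, filled knockout, and lines are genotype means. The axes differ in level but span the same range. The 9 were picked by their p, which favours genotypes that do not overlap, and 42% of all genes tested do not overlap. The nearest arrays of the genotypes lie 0.0078 log2 units apart for Pcdh12 and 0.43 for Cdh10.

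The promoters of the 4 delta protocadherins with the smallest p among those with a sequence are shown because their values were higher together. They come from RefSeq (GRCm38.p6), are the 250 bases before the annotated start, and run 5′ to 3′ on the strand of the gene. The windows are chr3:45378148-45378397 (+) for Pcdh10, chr5:57717831-57718080 (+) for Pcdh7, chr14:93890680-93890929 (-) for Pcdh9 and chr14:84443313-84443562 (+) for Pcdh17. Capitals mark CCAAT, read on either strand, a motif bound by the NF-Y factor.
Pcdh10: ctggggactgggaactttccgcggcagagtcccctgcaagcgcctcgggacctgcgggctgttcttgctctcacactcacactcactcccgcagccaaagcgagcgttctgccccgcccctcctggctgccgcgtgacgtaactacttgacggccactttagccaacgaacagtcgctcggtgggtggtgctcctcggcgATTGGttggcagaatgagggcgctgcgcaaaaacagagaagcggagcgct
Pcdh7: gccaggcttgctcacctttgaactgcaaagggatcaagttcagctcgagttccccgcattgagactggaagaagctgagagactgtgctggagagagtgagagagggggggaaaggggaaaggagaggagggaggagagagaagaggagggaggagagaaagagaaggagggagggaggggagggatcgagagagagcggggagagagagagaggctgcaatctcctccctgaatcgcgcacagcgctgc
Pcdh9: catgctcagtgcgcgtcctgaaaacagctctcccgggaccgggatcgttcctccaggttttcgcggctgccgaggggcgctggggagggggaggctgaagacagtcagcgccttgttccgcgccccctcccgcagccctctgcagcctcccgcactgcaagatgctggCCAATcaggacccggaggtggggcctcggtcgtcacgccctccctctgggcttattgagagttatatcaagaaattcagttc
Pcdh17: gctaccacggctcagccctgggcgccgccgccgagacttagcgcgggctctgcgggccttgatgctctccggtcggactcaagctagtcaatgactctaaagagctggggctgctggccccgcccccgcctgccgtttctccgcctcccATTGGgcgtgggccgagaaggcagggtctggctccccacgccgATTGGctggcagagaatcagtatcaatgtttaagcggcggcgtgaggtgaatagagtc
CCAAT occurred in Pcdh10, Pcdh9 and Pcdh17 and not in the Pcdh7 window. It was found for 6 of the 7 delta protocadherins with a sequence, those with small differences included. Among all members with a sequence it was found for 14 of 22, with 5 of 10 type II genes and 3 of 4 others. Counted per window and not per gene, it stood in 33.8% of all 32851 RefSeq windows of this length. The delta windows had a median of 63.6% G and C, against 52.4% over all windows. Their median ratio of observed to expected CpG was 0.712, against 0.373.

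Type II cadherins had values on both sides and held the largest difference of any member on either side. Of 13 members 5 were higher and 8 lower in the knockout, and 9 were bright enough to be tested. Their median log2 difference was -0.0061 over the tested members and -0.037 over all 13. With limma 0 reached the adjusted threshold, and at an unadjusted p under 0.05 stood 1 higher and 2 lower members, where all genes tested gave 10.2%.

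Cdh10, a type II cadherin known mainly from brain, read 7.91 and 8.22 in the wild type and 8.64 and 8.91 in the knockout. Both knockout arrays lay above both wild-type arrays, and the difference was alike within the numbers, 0.74 at 48 and 0.70 at 50. The mean was 8.06 ± 0.22 in the wild type and 8.78 ± 0.19 in the knockout (SD, n = 2 pools per genotype). The difference of 0.72 ± 0.14 (SE), or 1.64-fold, missed the adjusted threshold (limma, adjusted p = 0.322). It was place 20 among the most positive differences of 14095 genes. Cdh6, or K-cadherin, known from kidney and neural crest, read 9.93 and 9.81 in the wild type and 9.39 and 9.52 in the knockout. Both knockout arrays were lower, with a difference of -0.54 at number 48 and -0.30 at number 50. The overall difference of -0.42 ± 0.090 (limma, adjusted p = 0.322) was place 115 among the most negative.

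Cdh10 and Cdh6 lie on chromosome 15, in a run of type II genes. In the RefSeq table (GRCm38.p6) these stand in the order Cdh6, Cdh9, Cdh10, Cdh12 and Cdh18. The run is one of gene order and not of short distance, as the promoter windows start at base 13173676 for Cdh6 and 18820079 for Cdh10. No other protein-coding gene stands between the first 4, and 1, Acot10, between Cdh12 and Cdh18. Along this run the differences were -0.42, -0.043, 0.72, 0.029 and -0.23. Cdh9 was too dim to be tested, and Cdh12 read between 5.62 and 5.73, near the floor of the array. Cdh18 read 5.82 and 5.98 in the wild type and 5.73 and 5.61 in the knockout, with a difference of -0.23 ± 0.095 (limma, adjusted p = 0.483). Its knockout arrays were lower but stood near the floor, where differences are compressed. Outside the run, the nearest tested genes were Drosha beside Cdh6 (-0.12 ± 0.080) and Basp1 beyond Cdh18 (0.14 ± 0.083), and inside it Acot10 differed by -0.080 ± 0.099. None of these 3 had an unadjusted p under 0.05.

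The promoters of Cdh10 and Cdh6 are shown because these genes of the same run differed in opposite directions. The RefSeq windows (GRCm38.p6, 250 bases before the start, 5′ to 3′) are chr15:18820079-18820328 (+) and chr15:13173676-13173925 (-). Neither holds a motif searched, so no letter is in capitals.
Cdh10: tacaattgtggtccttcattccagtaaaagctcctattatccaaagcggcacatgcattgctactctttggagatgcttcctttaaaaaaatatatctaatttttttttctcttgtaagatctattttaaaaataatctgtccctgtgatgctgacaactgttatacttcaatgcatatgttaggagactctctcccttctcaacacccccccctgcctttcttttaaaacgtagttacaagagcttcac
Cdh6: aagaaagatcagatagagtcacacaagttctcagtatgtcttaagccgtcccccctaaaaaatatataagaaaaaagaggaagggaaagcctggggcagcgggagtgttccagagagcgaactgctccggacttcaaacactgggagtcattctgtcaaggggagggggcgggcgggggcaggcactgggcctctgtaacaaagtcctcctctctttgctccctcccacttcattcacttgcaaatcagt
The Cdh10 window had 36.8% G and C, the lowest of the 25 windows of members, and the Cdh6 window 51.2%. The homeodomain palindromes TAATTA and TAATNNNATTA were searched on both strands, overlaps allowed. TAATTA occurred for 1 of 22 members with a sequence, the dim gene Cdh7, and in 4.84% of all windows. TAATNNNATTA occurred for 0 of 22 members and in 0.463% of all windows. The other motifs searched were CAGGTG (2 members, 17.2% of all windows), CACGTG (1 member, 6.02%) and TATAAA (2 members, 12.4%).

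**Figure D3:**
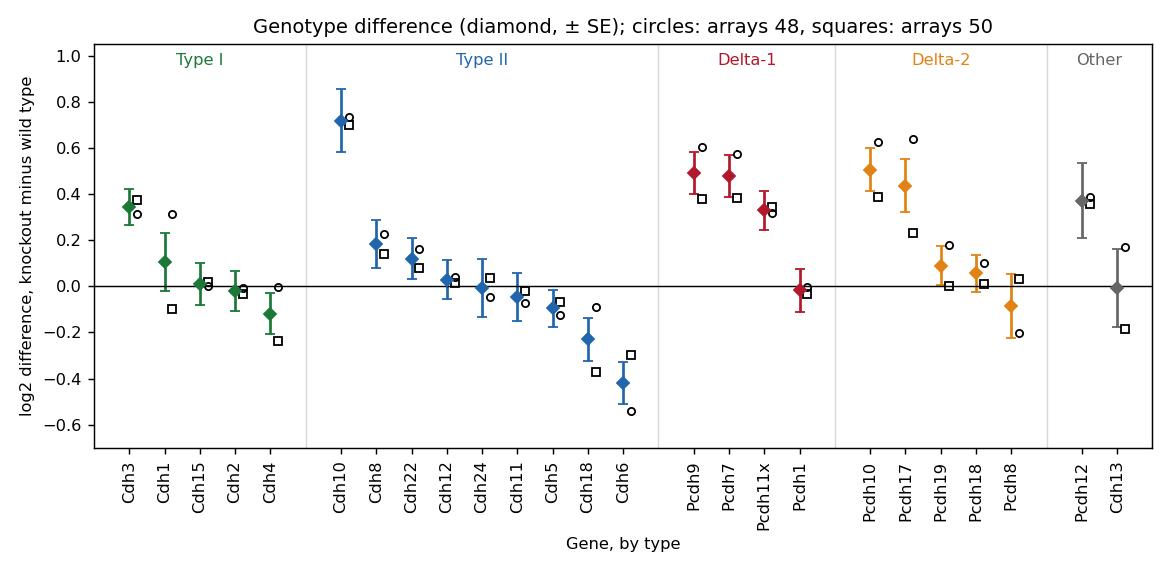
Log2 difference, knockout minus wild type (vertical axis), of the 25 tested members by type; diamonds and bars are the difference over all 4 arrays ± SE, circles the difference at number 48 and squares that at number 50. Cdh10 stands at 0.72 and Cdh6 at -0.42, and 5 delta protocadherins stand between 0.33 and 0.51.

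The remaining type II genes differed by less. Cdh11, the mesenchymal cadherin also called OB-cadherin, read 12.37 and 12.52 in the wild type and 12.29 and 12.50 in the knockout. The genotypes overlapped, and the difference of -0.047 ± 0.10 was below its error (limma, adjusted p = 0.910). Cdh5, or VE-cadherin of vessels, read 11.14 and 11.16 in the wild type and 11.01 and 11.09 in the knockout, a difference of -0.096 ± 0.080 (limma, adjusted p = 0.726). Of 13 endothelial markers 10 had lower values in the knockout, 4 at an unadjusted p under 0.05. Over all genes tested, 5% were lower at that threshold. The median difference of the list was -0.25. Its summed level was 12.27 and 12.30 in the wild type and 12.13 and 12.18 in the knockout. The part of this list in the Cdh5 value was not tested. Cdh8 differed by 0.18 ± 0.10, Cdh22 by 0.12 ± 0.089 and Cdh24 by -0.0061 ± 0.13. Cdh7, Cdh9, Cdh19 and Cdh20 were too dim to be tested. Among them Cdh19, a marker of Schwann cell precursors, read 5.70 and 5.56 in the wild type and 5.37 and 5.40 in the knockout. The Schwann cell and neural crest list had 5 of 10 tested markers lower, a median of -0.021 and 0 at an unadjusted p under 0.05.

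Type I cadherins were all bright enough to be tested, and 1 of 5, Cdh3, had an unadjusted p under 0.05 (10.2% of all genes tested). Their median difference was 0.0099, with 3 higher and 2 lower. Cdh3, the P-cadherin of the ectoderm, read 9.69 and 9.62 in the wild type and 10.004 and 9.996 in the knockout. The knockout arrays lay within 0.0078 of each other and at least 0.30 above the wild-type arrays. The standard deviation was 0.050 in the wild type and 0.0055 in the knockout, and the difference of 0.34 ± 0.079 (SE) missed the adjusted threshold (limma, adjusted p = 0.322). Cdh1, the E-cadherin of epithelia and the gene next to Cdh3 on chromosome 8, read 7.71 and 8.07 in the wild type and 8.02 and 7.97 in the knockout. For Cdh1 the sign turned between the numbers, 0.31 at 48 and -0.10 at 50. Among 13 tested surface epithelium markers 10 had higher values in the knockout, and the median was 0.088. At an unadjusted p under 0.05 stood 2 of these and 1 lower marker, Krt18, against 10.2% of all genes tested. The summed level of the list was 10.96 and 11.04 in the wild type and 11.04 and 11.19 in the knockout. The part of this list in the Cdh3 value was not tested. Epcam, its defining marker, differed by 0.088 ± 0.13 and Krt14 by 0.26 ± 0.096.

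Cdh2, the N-cadherin of condensing mesenchyme, muscle and nerve, read 11.56 and 11.47 in the wild type and 11.56 and 11.43 in the knockout. Its difference of -0.021 ± 0.088 was below its error (limma, adjusted p = 0.956). The chondrocyte list of 11 genes had a median difference of -0.048, with 8 genes lower and 3 higher in the knockout. At an unadjusted p under 0.05 stood Col9a2 (0.39 ± 0.092), Matn1 (-0.29 ± 0.088) and Hapln1 (-0.27 ± 0.10), where all genes tested gave 10.2%. Sox9, the early cartilage regulator, differed by 0.065 ± 0.14. Cdh4, or R-cadherin, read 7.65 and 7.79 in the wild type and 7.65 and 7.56 in the knockout, a difference of -0.12 ± 0.090 (limma, adjusted p = 0.691). Cdh15, the M-cadherin of myoblasts, read 7.46 and 7.32 in the wild type and 7.46 and 7.34 in the knockout. Its value followed the array number (lower on 50) and not the genotype. Of 12 myoblast markers 5 had higher and 7 lower values and 0 had an unadjusted p under 0.05.

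Of the 8 members of no such type, 2 were bright enough to be tested. Pcdh12, a protocadherin of endothelial cells, read 6.49 and 6.87 in the wild type and 6.88 and 7.22 in the knockout. The knockout values were higher by 0.39 at number 48 and 0.35 at number 50, while within each genotype the value on 50 exceeded that on 48 by 0.38 and 0.35. The difference of 0.37 ± 0.16 did not pass (limma, adjusted p = 0.501). Its sign was opposite to that of 10 of the 13 endothelial markers. Cdh13, the GPI-anchored T-cadherin, read 7.46 and 7.99 in the wild type and 7.63 and 7.80 in the knockout, and its sign turned between the numbers (-0.0072 ± 0.17 overall; limma, adjusted p = 0.994). The dim members were the hair cell tip-link genes Cdh23 and Pcdh15, kidney Cdh16, intestinal Cdh17, Cdh26 and Pcdh20. These 6 read between 5.35 and 5.59 and differed by at most 0.094 in size.

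**Figure D4:**
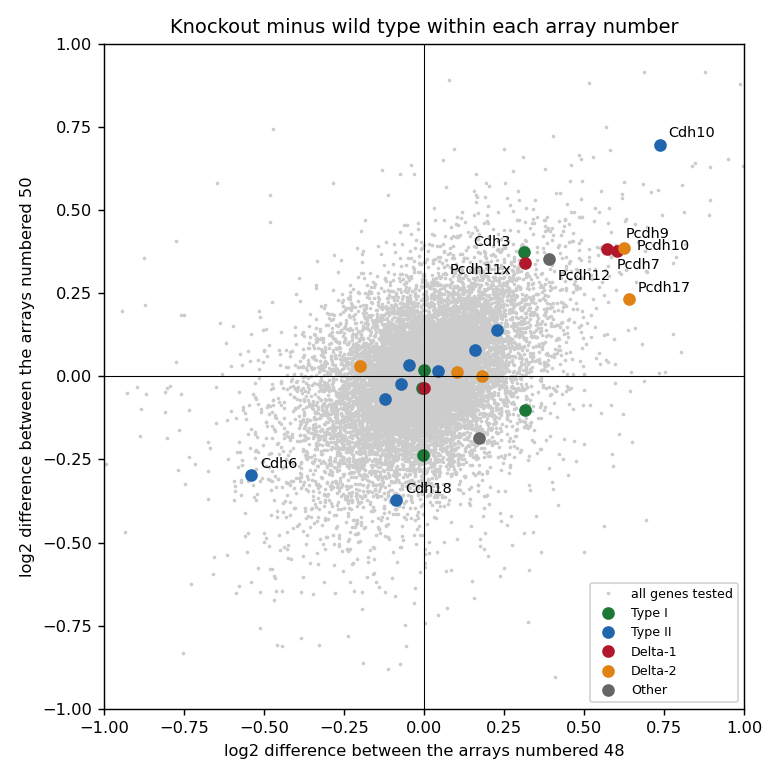
Log2 difference, knockout minus wild type, for arrays 48 (horizontal axis) and for arrays 50 (vertical axis); grey points are all genes tested, of which 25 lie outside the axes, and coloured points are the 25 tested members. Cdh10, at 0.74 and 0.70, lies farthest to the upper right among members, and Cdh6, at -0.54 and -0.30, to the lower left.

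The intracellular and regulatory partners of these proteins were taken from 5 lists. Of their 60 tested genes limma called 0 at the adjusted threshold, while 2 had an unadjusted p under 0.05 (3.33%, against 10.2% of all genes). Catenins and related linkers, which tie classical cadherins to actin, had a median of -0.021 over 14 genes, 5 higher and 9 lower. Among them the plakoglobin gene Jup differed by -0.14 ± 0.094, Ctnna1, or alpha-catenin, by -0.12 ± 0.084, Plekha7 by -0.13 ± 0.091 and Ctnnal1 by -0.091 ± 0.093. Partners of delta protocadherins had a median of 0.0027 over 12 genes. The reelin adaptor gene Dab1 read 8.91 and 9.04 in the wild type and 9.26 and 9.29 in the knockout (0.30 ± 0.086; limma, adjusted p = 0.376), and the WAVE complex gene Nckap1 differed by -0.13 ± 0.079.

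Shedding and trafficking genes, which include the proteases that cut cadherins, had a median of 0.0070 over 10 genes. Adam12 differed by -0.17 ± 0.093 and Ncstn, a gamma-secretase subunit, by 0.12 ± 0.086. Transcription factors known to set cadherin expression, listed with the splicing regulator Esrp1, had a median of 0.032 over 11 genes. Of these 8 were higher and 3 lower. Twist2 read 8.75 and 9.04 in the wild type and 8.51 and 8.52 in the knockout (-0.38 ± 0.11; limma, adjusted p = 0.381). Twist1 differed in the other direction, by 0.16 ± 0.079, and Snai2, a repressor of Cdh1, by 0.15 ± 0.083. Other genes of the cadherin superfamily had a median of 0.00024 over 13 tested genes of 26 measured. The giant cadherin gene Fat1 differed by 0.16 ± 0.097 and the desmosomal gene Dsg2 by -0.14 ± 0.080.

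**Figure D5:**
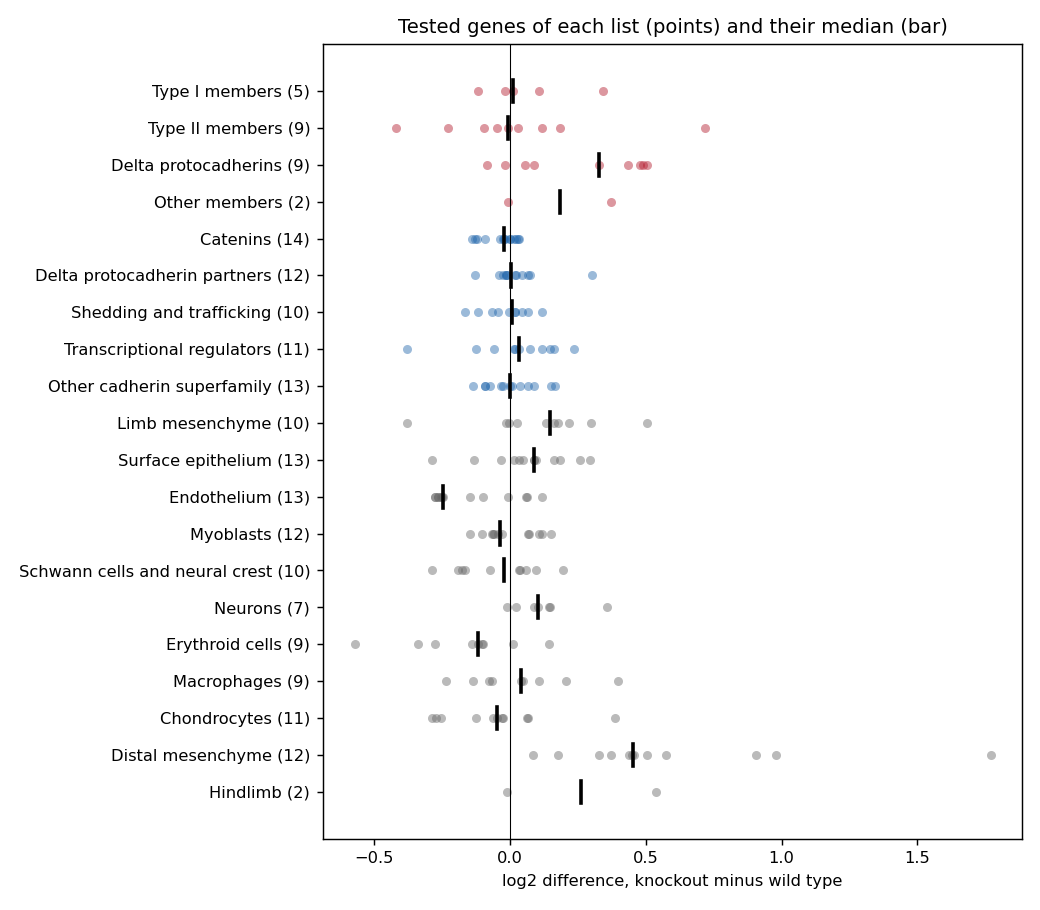
Log2 difference, knockout minus wild type (horizontal axis), of every tested gene (points) in the member types (red), the partner lists (blue) and the cell type marker lists (grey), with the median of each list as a bar and the number of genes in brackets. The delta protocadherin median stands at 0.33, the partner medians between -0.021 and 0.032, and the distal mesenchyme median at 0.45.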

How the data were processed

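Forelimb RNA was hybridised as biotin-labelled cRNA to 4 Affymetrix-type arrays, per the labels' protocols. The authors deposited 1 table of log2 expression values per probe set, between 5.04 and 14.12. Its sorted values were identical on 3 arrays and within 0.0017 on knockout array 48, as after quantile normalization. Background correction, summarisation and genome build are not given in the sources used here, and no further normalization was applied. An annotation table named 23185 of 25206 probe sets, 1 gene each, and left 2021 unnamed. Named genes at or above percentile 40 of mean level (14095) were tested with limma 3.58.1 in R 4.3.3 (lmFit, eBayes, no covariate, two-sided). P-values were adjusted over all of them by the Benjamini-Hochberg method at 0.05. The procedure was tested on simulated data, in which the added changes were larger than the difference of any member. That test cannot tell how often changes of the members' size are called. Arrays have no read depth, so their number limits the precision. Summed levels are log2 of the summed linear values of a list.

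The members and lists were chosen with earlier results of these data known. The difference, SE and adjusted p are given for members at an unadjusted p under 0.05, the 3 largest differences and the highest level of each type. Means and SD are given for some of them. Up to 4 genes of smallest p were named from each partner list. Pcdh8, Pcdh19, Pcdh1, Cdh15 and the weaker type II members were added to account for every member. Marker genes were named after their values were seen. Gene order and promoters came from RefSeq tables of GRCm38.p6 (22 of 35 members had a promoter window), and plots from matplotlib 3.10.9. Alternatives were other filters, normalizations and variance models, other sets of genes, a block for the array number, and each array left out.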

Additional observations from a re-analysis of the deposited data

Results flagged for a closer look

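Outside the named genes, 1 probe set without a gene name in the annotation differed between the genotypes when unnamed probe sets were tested too. It read 5.60 and 5.63 in the wild type and 7.70 and 7.94 in the knockout, a log2 difference of 2.21 (limma, adjusted p = 0.00115). The 3 measured Y-linked genes were also higher on the knockout arrays. For this probe set too, sex-linked signal and genotype cannot be told apart.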

How the results depend on the processing

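Of the 16 members picked by p, size of difference or level, 12 kept their direction under every alternative that could be run for them. For the other 4 the direction turned when an array was left out: Cdh1 ranged from -0.073 to 0.29, Cdh2 from -0.083 to 0.042, Cdh11 from -0.15 to 0.056 and Cdh13 from -0.27 to 0.26. The count of members at an unadjusted p under 0.05 ran from 7 to 11, and 7 members were in it under all 13 alternatives and the reported fit. The share of all genes at that threshold moved too, from 5.97% without wild-type array 48 (9 members) to 18.6% with the array number as a block (11 members). With an array left out, the medians ran from -0.049 to 0.067 for type I, from -0.020 to 0.056 for type II, from 0.27 to 0.37 for delta protocadherins and from -0.045 to 0.41 for the 2 tested others. The count of genes called over the whole table was then 4 to 5 and that of members 0. Beside these 4, differences that moved by over 1.5 times were Pcdh17 at 0.29 without knockout array 48, and Cdh4 at -0.073 and Pcdh12 at 0.20 without knockout array 50. Without wild-type array 48 Cdh4 stood at -0.19, Pcdh12 at 0.18 and Pcdh18 at 0.012, and without wild-type array 50 Cdh4 stood at -0.049, Pcdh12 at 0.56, Pcdh18 at 0.10 and Cdh18 at -0.15. Cdh18 lost its unadjusted p under 0.05 without wild-type array 50 and without knockout array 50. A lone array of a genotype was given the spread of the other genotype.

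The delta protocadherin median was 0.46 with the filter at percentile 60, which leaves 6 of them, and 0.44 without X- and Y-linked genes, which leaves 7. Leaving out X- and Y-linked genes gave 0 genes called over the whole table. Cdh18 was not tested under the filter at percentile 60, nor Pcdh11x under that filter or without X- and Y-linked genes. The labels do not say that an array number marks a pregnancy or a day. Deviations from the genotype means correlated at 0.39 between the genotypes (Pearson, across 14095 genes, which are not independent replicates). With the array number as a block, 382 genes were called and 7 members: Cdh10 (limma, adjusted p = 0.00353), Pcdh7, Pcdh9 and Pcdh10 (0.0211 each), Cdh6 and Pcdh12 (0.0367 each) and Cdh3 (0.0476). The block leaves 1 residual degree of freedom, and with 2 numbers it cannot be checked whether they pair the pools. The number of arrays and the compressed values near the floor of the array limit every statement on the dim members.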
